A study of Mus musculus with 12 samples.

Results

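Irradiation, without competition from WT cells, of hematopoietic stem cells (HSCs) that carry mutant p53 was compared here with no irradiation. The irradiated mice held no HSCs of the other genotype, whereas the unirradiated mosaic mice also held WT HSCs. The comparison used 4 of the 12 mouse arrays of the series, chosen by their titles. A pair of arrays held mp53 HSCs from irradiated mice whose R26-mp53 allele was fully recombined, taken 3 weeks after 2.5 Gy. The other pair held the GFP-positive mp53 HSCs of R26-mp53 mosaic mice that received no treatment. All HSCs were sorted from bone marrow as lineage-negative, c-Kit-positive, Sca-1-positive, CD150-positive and CD48-negative cells, and RNA of 200 cells per array was amplified before hybridization. The labels give no strain, age, sex or driver of recombination, and they do not say whether replicates were separate mice or pools. P-values therefore measure only the spread between these samples. Because the irradiated cells came from fully recombined mice and the unirradiated cells from mosaic mice, irradiation and kind of mouse cannot be told apart.

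p53 is a transcription factor that is stabilised when DNA breaks. It switches on Cdkn1a and other brakes of the cell cycle, genes of DNA repair and of cell death, and Mdm2, which in turn degrades p53. HSCs rest outside the cell cycle for most of the time, held there by inhibitors such as the products of Cdkn1c and Ndn, and ionising radiation kills many blood cells and calls the surviving stem cells into division. Mutant p53 blunts these responses, and mutant cells are known to gain ground over normal HSCs in irradiated marrow.

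Levels are given as normalized log2 intensity and differences as irradiated minus unirradiated, in log2 units. The 4 arrays differed in brightness, measured as the 95th percentile of raw intensity. It was 82.3 and 257 for the unirradiated arrays of replicate numbers 1 and 2, and 216 and 482 for the irradiated ones, against a range of 82.3 to 1079 over the series. Probes detected (detection p-value under 0.05) numbered 8968 and 11891 unirradiated and 12444 and 13242 irradiated, so that within both numbers the irradiated array was the brighter one with more probes detected. The arrays of WT cells ran the other way, with 13389 and 12568 probes detected unirradiated and 12568 and 10963 irradiated. The part of brightness in the differences that follow was examined only by adding it to the model as a covariate.

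Transcripts of the HSC programme were detected, though not all of them. Of 48 HSC genes on the array, 39 passed the detection filter and 29 were detected on all 4 arrays. Over all genes that passed the filter, 4789 of 8374 were detected on all 4. The 29 included Kit, Gata2, Tal1, Lmo2, Meis1, Ndn, Fgd5 and Vwf. Procr, a further HSC marker, was detected on no array of the series. Slamf1, which encodes the gate antigen CD150, and Tek, a receptor that keeps HSCs quiescent, were detected on none of the 4, although other groups kept them in the analysis. Cd48, whose product the gate excluded, was detected on both arrays of number 2. Transcripts of mature granulocytes were also present at high signal, as described below.

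No probe passed the test for irradiation. limma with Benjamini-Hochberg adjustment called 0 of 13512 probes (0%), the smallest adjusted p was 0.887, and 461 probes (3.41%) had an unadjusted p under 0.05, 248 of them higher (1.84%) and 213 lower (1.58%) in irradiated cells. The share that was higher, 53.8%, was 6.5% under median scaling, 43.4% with quantile normalization within each replicate number and 42.1% in the deposited processed values. The median standard error of a difference was 0.49. Unirradiated replicate 2 decided part of these counts: without it 78 probes were called, 64 higher and 14 lower, against the dimmest array of the series alone, and 44 of the 78 were not detected on that array. In that fit the lone sample is assumed to vary like the other groups, and 52 of the 78 probes had the same direction within number 2.

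Both replicate numbers gave largely different lists of genes. Over 8374 genes the difference within number 1 and that within number 2 had a Pearson correlation of -0.01 and a Spearman correlation of 0.06, as a description across genes that share arrays and are not independent. The direction matched for 53.9% of genes. Within number 1, which held the dimmest array, differences spread with an SD of 1.06 and exceeded 2 log2 units in 547 genes; within number 2 the SD was 0.60 and 65 genes exceeded that size. Among genes that differed by more than 1 unit within both numbers, 76 (0.908%) were higher in both, 34 (0.406%) were lower in both, and 181 went in opposite directions. Arrays of one group resembled each other less than arrays of one number did: the unirradiated arrays correlated at 0.756 with each other and the irradiated ones at 0.826, whereas unirradiated and irradiated arrays correlated at 0.847 within number 1 and 0.945 within number 2.

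**Figure D1:**
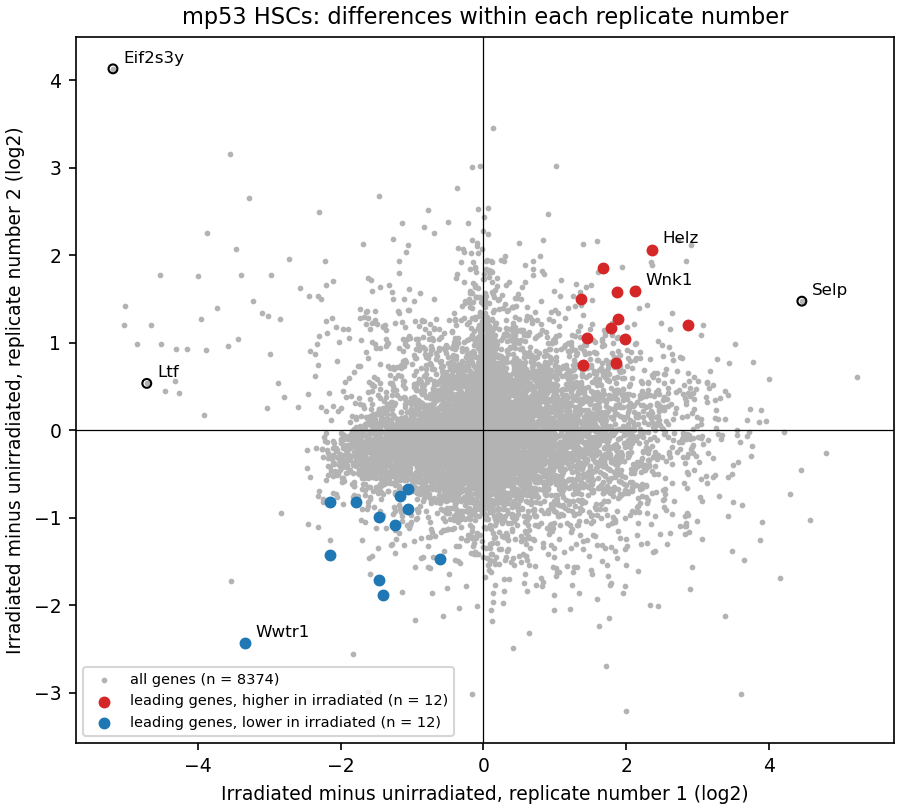
Each grey point is 1 of 8374 genes, with the irradiated minus unirradiated difference in log2 units within replicate number 1 on the horizontal axis and within number 2 on the vertical axis. Red and blue points are the 12 leading genes in each direction, open circles mark 3 genes named in the text, and the cloud has little slope (Pearson correlation -0.01).

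Detection differed between the groups. Of the 8374 genes, 241 (2.88%) were detected on both irradiated and neither unirradiated array, and 40 (0.478%) the reverse. Among the 4789 genes detected on all 4 arrays, 43.2% lay higher in irradiated cells and the median difference was -0.09, against 53.6% and 0.04 over all genes.

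The leading genes are the 12 per direction with the smallest unadjusted p whose groups did not overlap and whose direction was the same within both numbers. Groups did not overlap for 898 genes (10.7%) upwards and 888 (10.6%) downwards, and 129 genes (1.54%) upwards and 111 (1.33%) downwards had an unadjusted p under 0.05. Since the leading genes were picked by this contrast, their values are descriptions.

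Wnk1, a kinase that governs chloride transport and cell volume, headed the genes higher in irradiated cells. It stood at 4.65 and 4.67 unirradiated, not detected, and at 6.77 and 6.26 irradiated, so that it was at least 3.05-fold higher (difference 1.85, SE 0.33, unadjusted p = 0.000387). On the other 8 arrays Wnk1 lay between 6.08 and 7.24, which places the irradiated cells with the rest of the series and the unirradiated mp53 cells below it. Snap23, a membrane fusion protein of exocytosis, was likewise not detected unirradiated (4.31 and 4.41) and reached 6.18 and 5.68 irradiated, at least 2.04-fold higher. For Snap23 it was the irradiated pair that lay above all other arrays, whose range was 4.31 to 5.60. Helz, an RNA helicase, was at 4.29 and 5.36 unirradiated and at 6.65 and 7.42 irradiated (difference 2.21, SE 0.51, unadjusted p = 0.00228).

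Among the other higher genes were enzymes and carriers of lipid and vitamin metabolism. Ggps1, which makes the geranylgeranyl lipid that anchors small GTPases, was at 6.18 and 5.63 unirradiated and at 7.86 and 7.49 irradiated. Srd5a3, which makes dolichol for protein glycosylation, was at 4.35 and 5.22 against 6.22 and 6.80. Slc19a2, a thiamine transporter, was at 5.92 and 6.58 against 7.77 and 7.36. The groups do not overlap in these 3, as the choice of leading genes required. Ggps1 and Slc19a2 were lower in the unirradiated mp53 pair than on any of the other 10 arrays. The microtubule-binding gene Nav1 (difference 1.47) showed that pattern too. Cemip2, which encodes a cell surface hyaluronidase, was not detected unirradiated and was at least 1.89-fold higher irradiated. Rai1, a chromatin-associated regulator, was at least 1.75-fold higher and Map3k6, a kinase, at least 1.50-fold, again with no detection unirradiated. 9930021J03Rik (difference 2.04) and the RNA-binding protein gene Rbm45 (1.51) completed the 12.

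Wwtr1 had the largest difference among the leading genes that lay lower. It encodes TAZ, a co-activator held in check by the Hippo pathway, and was at 8.14 and 6.84 unirradiated and at 4.81 and 4.41 irradiated, detected on the first irradiated array and not on the second (difference -2.88, SE 0.58, unadjusted p = 0.000937). A further probe kept for Wwtr1 differed by 0.19, so the value belongs to 1 probe. WT cells had Wwtr1 at 5.28 and 6.86 unirradiated and 4.94 and 4.67 irradiated. The unnamed transcript 4930599N23Rik was at 6.57 and 5.96 against 4.42 and 4.53, not detected irradiated, and at least 3.06-fold lower. Cyp26b1, which degrades retinoic acid, was at 5.96 and 6.26 unirradiated and at 4.56 and 4.38 irradiated, again not detected, and at least 2.76-fold lower.

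The other genes that lay lower included membrane receptors and regulators of chromatin and transcription. Tnfrsf21, a death receptor of the tumour necrosis factor family, was at 7.06 and 5.90 against 4.9 and 5.08, and Igdcc4, an immunoglobulin-like membrane protein, at 7.15 and 6.15 against 5.68 and 4.44. Gprasp1, which sorts G-protein-coupled receptors to lysosomes, was at 9.0 and 8.67 against 7.54 and 7.67, the narrowest spread of these 3. Smarce1, a subunit of the BAF chromatin remodelling complex, was at 8.07 and 8.08 unirradiated and at 7.46 and 6.61 irradiated. Foxp1, a forkhead factor, differed by -1.16, Galnt11, a glycosyltransferase, by -1.30, and Fundc1, a receptor for mitophagy, by -0.98. Txlnb, not detected irradiated, was at least 1.76-fold lower, and 4930473A02Rik differed by -0.86.

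Set against the other 8 arrays of the series, the unirradiated mp53 pair stood apart more often than the irradiated pair. Both unirradiated arrays lay outside the range of all 10 other arrays for 5 of the 12 higher and 6 of the 12 lower leading genes, and both irradiated arrays did so for 2 and 0. Where the pair was not detected, as for Wnk1 and Cemip2, its place rests on background signal. Over all genes whose groups did not overlap, the unirradiated pair lay outside for 86 of 898 upwards and 90 of 888 downwards, and the irradiated pair for 20 and 8. Of the 24 leading genes, 8 had further kept probes, and in 4 (Wwtr1, Nav1, Rbm45 and Foxp1) the probes differed in sign.

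**Figure D2:**
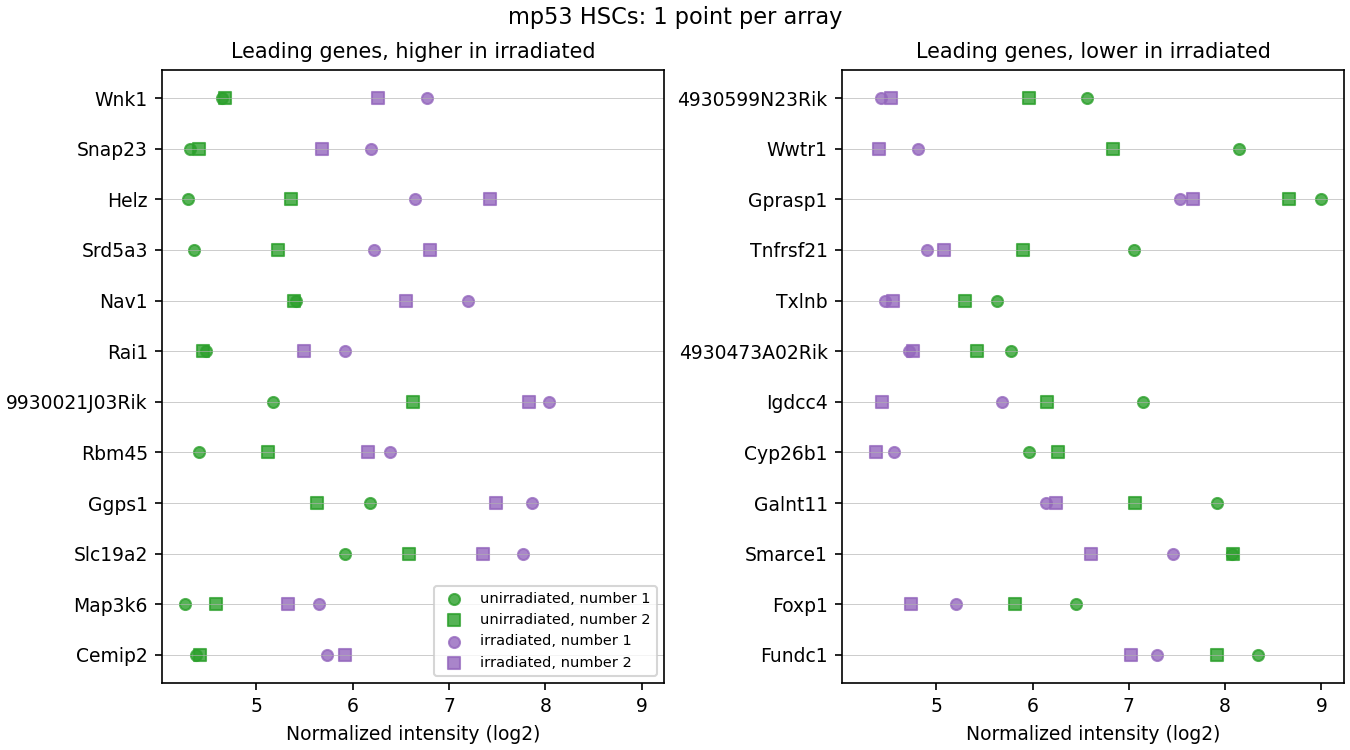
Normalized log2 intensity of the 12 leading genes in each direction, 1 point per array, green for unirradiated and purple for irradiated mp53 HSCs, circles for replicate number 1 and squares for number 2. The colours do not overlap in any gene, which the choice of genes required, and the unirradiated points of Wnk1 (4.65 and 4.67) and Snap23 (4.31 and 4.41) lie at background.

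Lists of genes are described by their counts and medians beside those of all genes, of which 26.8% were higher within both numbers and 27% lower. The choice of lists was made with earlier results of these data known, and 0 members of any list passed adjustment over all probes. Most medians were small against the spread between arrays: leaving out 1 of the 4 arrays changed the sign of 29 of 32 medians for at least 1 choice of array. With brightness as a covariate 18 of the 32 changed sign, among them granulocyte and monocyte (0.12 to -0.98), gate antigen (0.29 to -0.06), progenitor (0.30 to -0.04), S phase (0.21 to -0.05), DNA repair (0.32 to -0.12), oxidative stress (0.27 to -0.04) and megakaryocyte genes (-0.26 to 0.09). Under median scaling in place of quantile normalization, which moved the median of all probes from 0.03 to -0.56, 15 medians went from above to below 0, those of gate antigens, progenitor, granulocyte and monocyte, macrophage and dendritic, B lineage, T and NK, erythroid, stromal and endothelial, G2 and mitosis, DNA repair, apoptosis, heat shock, oxidative stress, NF-kB and sex-linked genes.

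Genes of the p53 pathway gave no common direction. Mdm2, the target that degrades p53, was at 10.52 and 10.16 unirradiated and at 9.81 and 10.21 irradiated (difference -0.34, SE 0.30). Ccng1, a cyclin induced by p53, was at 9.67 and 8.30 against 8.34 and 8.18, with the unirradiated array of number 1 alone standing high, and its 3 kept probes ranged from -0.73 to 0.43, only this one being below 0. Of 17 measured p53 targets 7 lay higher and 10 lower, with a median of -0.17, and of -0.30 and 0.07 within numbers 1 and 2. The median was 0.10 without unirradiated replicate 2 and 0.02 without irradiated replicate 1. The 7 targets detected on all 4 arrays, each read from its brightest probe, lay lower in the mean (median -0.34). Over all genes so detected the median was -0.09 and 43.2% lay higher. Tigar, which limits glycolysis and oxidative damage, had the smallest p of the list and lay higher (4.39 and 5.99 against 5.48 and 7.70), whereas Plk2, a polo-like kinase, was at 5.56 and 4.85 unirradiated and not detected irradiated. Cdkn1a, the p53 target that stops the cycle in G1, was on the array and was detected on none of the 4. Trp53 and Bax are not analysed here.

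Inhibitors and cyclins of G1 were mixed as well. Cdkn1c, the inhibitor that keeps HSCs quiescent, was at 10.35 and 10.04 unirradiated and at 9.78 and 7.92 irradiated (difference -1.35, SE 0.72), so the groups did not overlap and the second irradiated array stood far below the other 3. Ccnd2, a D-type cyclin, was at 10.94 and 8.78 against 9.71 and 7.86, lower within each number while the groups overlapped; its other kept probe differed by 1.33. The pocket protein gene Rbl1 differed by -0.68. E2f1 and E2f2 encode activators of S phase genes. E2f1 was at 6.65 and 8.99 unirradiated and at 8.71 and 8.96 irradiated, low on the first unirradiated array alone, and E2f2 at 5.46 and 6.35 against 6.29 and 8.53; the groups overlapped in both. In the list of 13, 5 lay higher and 8 lower (median -0.12).

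Genes that mark or maintain HSCs mostly lay lower in the irradiated cells, and by more in number 2. Of 39 measured members 29 lay lower and 10 higher, with a median of -0.47, and of -0.05 and -0.79 within numbers 1 and 2. Lower within both numbers were 20 of 39 (51.3%), against 27% of all genes. Of the 29 members detected on all 4 arrays, 28 lay lower in the mean and 1, Socs2, higher. Over all 4789 genes so detected 43.2% lay higher. None of the 39 had an unadjusted p under 0.05. The mean level of the list was 7.85 and 7.57 unirradiated and 7.88 and 6.86 irradiated, so the second irradiated array was the low one: without it the median was 0.06, and without the first irradiated array it was -1.03. With brightness as a covariate the median was -0.15.

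Kit, the stem cell factor receptor and an antigen of the gate, was at 8.47 and 7.41 unirradiated and at 7.34 and 6.37 irradiated (difference -1.08, SE 0.68, unadjusted p = 0.147). The groups of Kit did not overlap, by a margin smaller than the gap between the arrays of either group. Mecom, a zinc finger factor needed for HSC self-renewal, was at 6.16 and 5.15 against 4.98 and 4.73. Sult1a1, a sulfotransferase enriched in HSCs, was at 9.26 and 7.87 against 7.59 and 7.33. In all 3 the unirradiated array of number 1 was the highest. Hoxb4, a homeobox factor that expands HSCs, was at 8.75 and 6.59 against 6.62 and 5.74, with overlapping groups. Ndn, the growth suppressor necdin, was at 9.50 and 10.13 unirradiated and at 9.99 and 8.70 irradiated, higher within number 1 and lower within number 2. Vwf, which marks platelet-biased HSCs, differed by -0.50. In the other direction Socs2, an inhibitor of cytokine signalling, was at 7.83 and 6.05 against 10.48 and 7.38, and Nupr1, a stress-induced chromatin protein, at 4.49 and 5.48 against 5.59 and 5.55.

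Imprinted regulators of growth, expressed from 1 parental allele and active in quiescent HSCs, had the lowest median of the lists. Of 10 measured members 8 lay lower and 2 higher (median -0.75, and -0.37 and -1.18 within numbers 1 and 2). The 6 detected on all 4 arrays lay lower in the mean throughout (median -1.29, against -0.09 over all genes so detected). The list's median was -0.14 without irradiated replicate 2 and -0.31 without unirradiated replicate 1, and -1.30 and -1.25 without the other arrays. Cdkn1c and Ndn belong to this list and to the HSC list. Snrpn, a splicing protein gene of the Prader-Willi region, was at 7.36 and 6.52 unirradiated and at 5.76 and 4.87 irradiated (difference -1.62, SE 0.73, unadjusted p = 0.0558), with groups that did not overlap. Igf2, a growth factor, was at 8.75 and 6.05 against 6.60 and 4.79, and Mkrn3 at 8.39 and 6.29 against 6.55 and 5.68. Impact, a regulator of translation, lay higher (4.77 and 4.54 against 6.18 and 5.32), while its other kept probe differed by -0.22.

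WT cells gave the same direction for these lists. The HSC median in irradiated against unirradiated WT cells was -0.90 (-0.13 and -1.75 within numbers 1 and 2) and that of imprinted genes was -0.88. Granulocyte and monocyte markers lay higher beside them, with a WT median of 1.49 (0.12 and 2.78 within numbers) and one of 1.95 in the mp53 cells of irradiated mosaic mice, and their part in these values was not tested. The mp53 cells of irradiated mosaic mice, set against the same unirradiated arrays, had HSC and imprinted medians of -1.72 and -2.31. The mosaic values share their controls with the comparison described here. Kit stood at 5.72 and 6.13, Ndn at 5.50 and 5.69 and Cdkn1c at 6.45 and 6.81 in those competing cells, in each gene below both arrays of the non-competing irradiated cells. The difference in a list's median between these groups was not tested.

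**Figure D3:**
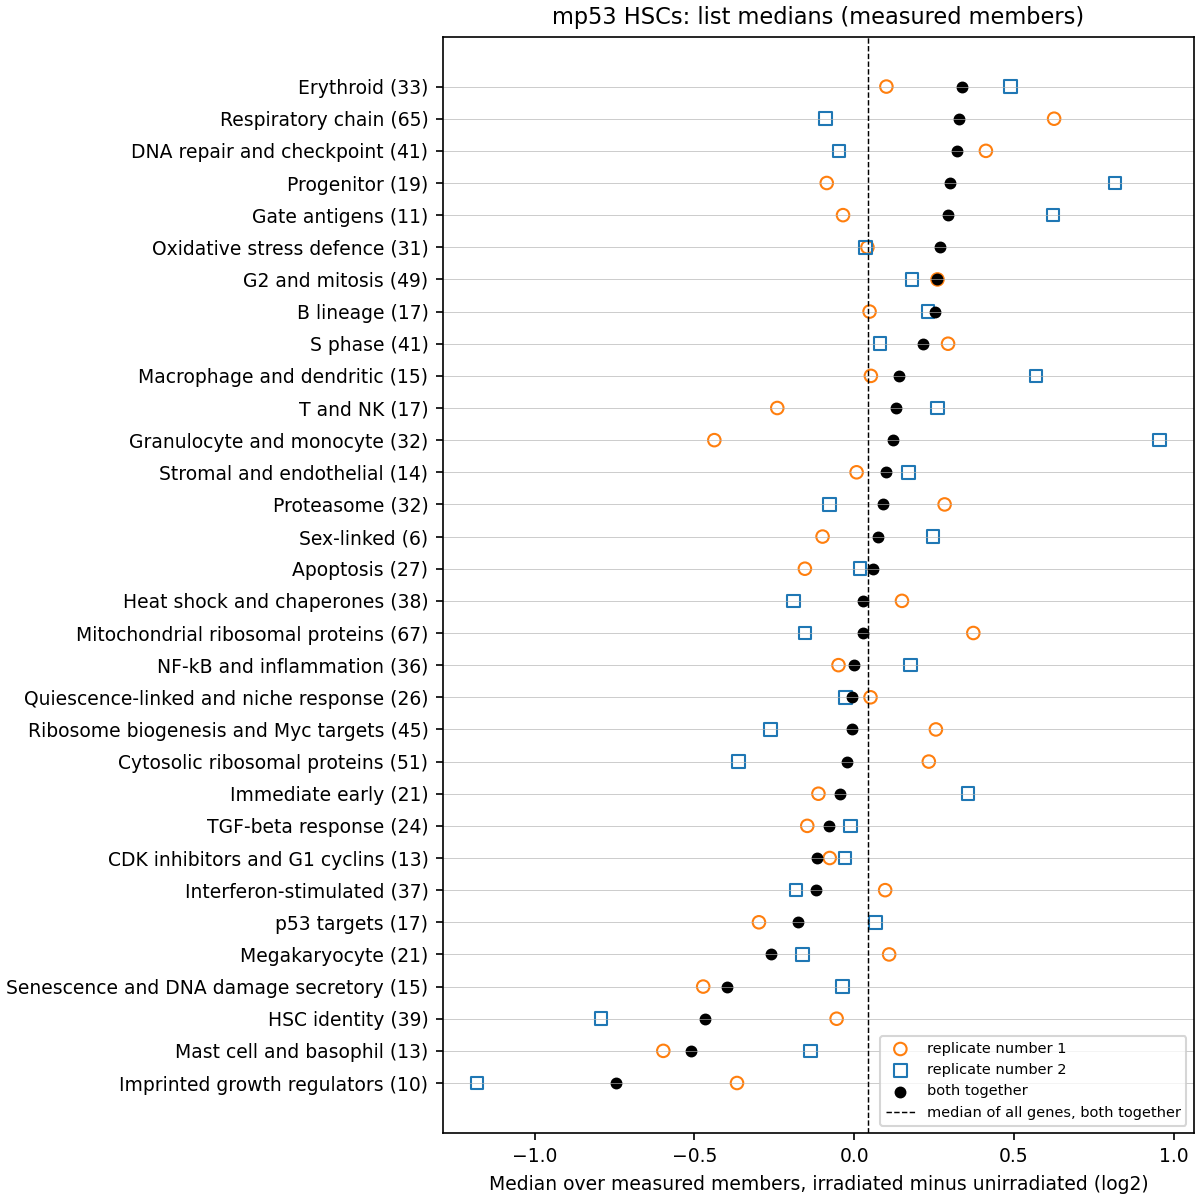
Median irradiated minus unirradiated difference in mp53 HSCs (log2, horizontal axis) for each list, with the number of measured members in brackets; open circles give replicate number 1, open squares number 2, filled points both together, and the dashed line the median of all genes (0.04). Imprinted genes (-0.75) and HSC identity (-0.47) lie at the low end with number 2 the lower, and granulocyte and monocyte markers part between the numbers (-0.44 and 0.96).

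Markers of mature granulocytes and monocytes were lowest on the first irradiated array and highest on the second. Mpo, the myeloperoxidase of granules, was at 7.92 and 12.43 unirradiated and at 4.48 and 13.47 irradiated. Its other kept probe differed by 0.39, against -1.20 for this one, so the Mpo levels given belong to 1 probe. Ltf, lactotransferrin of secondary granules, was at 12.43 and 13.52 against 7.72 and 14.05. S100a9, a calcium-binding protein abundant in neutrophils, was at 12.56 and 13.03 against 8.30 and 13.45. The first irradiated array was the lowest of all 12 for Mpo, Ltf and S100a9, and within number 2 the irradiated array was the higher one. Over the 32 measured members the mean level was 6.80 and 8.46 unirradiated and 5.52 and 9.40 irradiated, 19 lay higher and 13 lower, and the median was 0.12 (-0.44 and 0.96 within numbers 1 and 2). Without the first irradiated array the median was 1.94, without the second it was -1.51, and without unirradiated replicate 1 it was -0.94. Csf2ra, a subunit of the GM-CSF receptor, was higher within both numbers (6.68 and 8.53 against 7.83 and 9.81), as was Csf3r, the G-CSF receptor (4.38 and 5.55 against 4.71 and 6.91). Elane, neutrophil elastase, was detected on the arrays of number 2 alone (6.05 and 6.54). The array on which HSC genes were lowest, the second irradiated one, was thus the one on which granulocyte transcripts were highest. Fewer cells of a type and less RNA per cell cannot be told apart in bulk samples, and the part of granulocyte RNA in the HSC values was not tested.

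**Figure D4:**
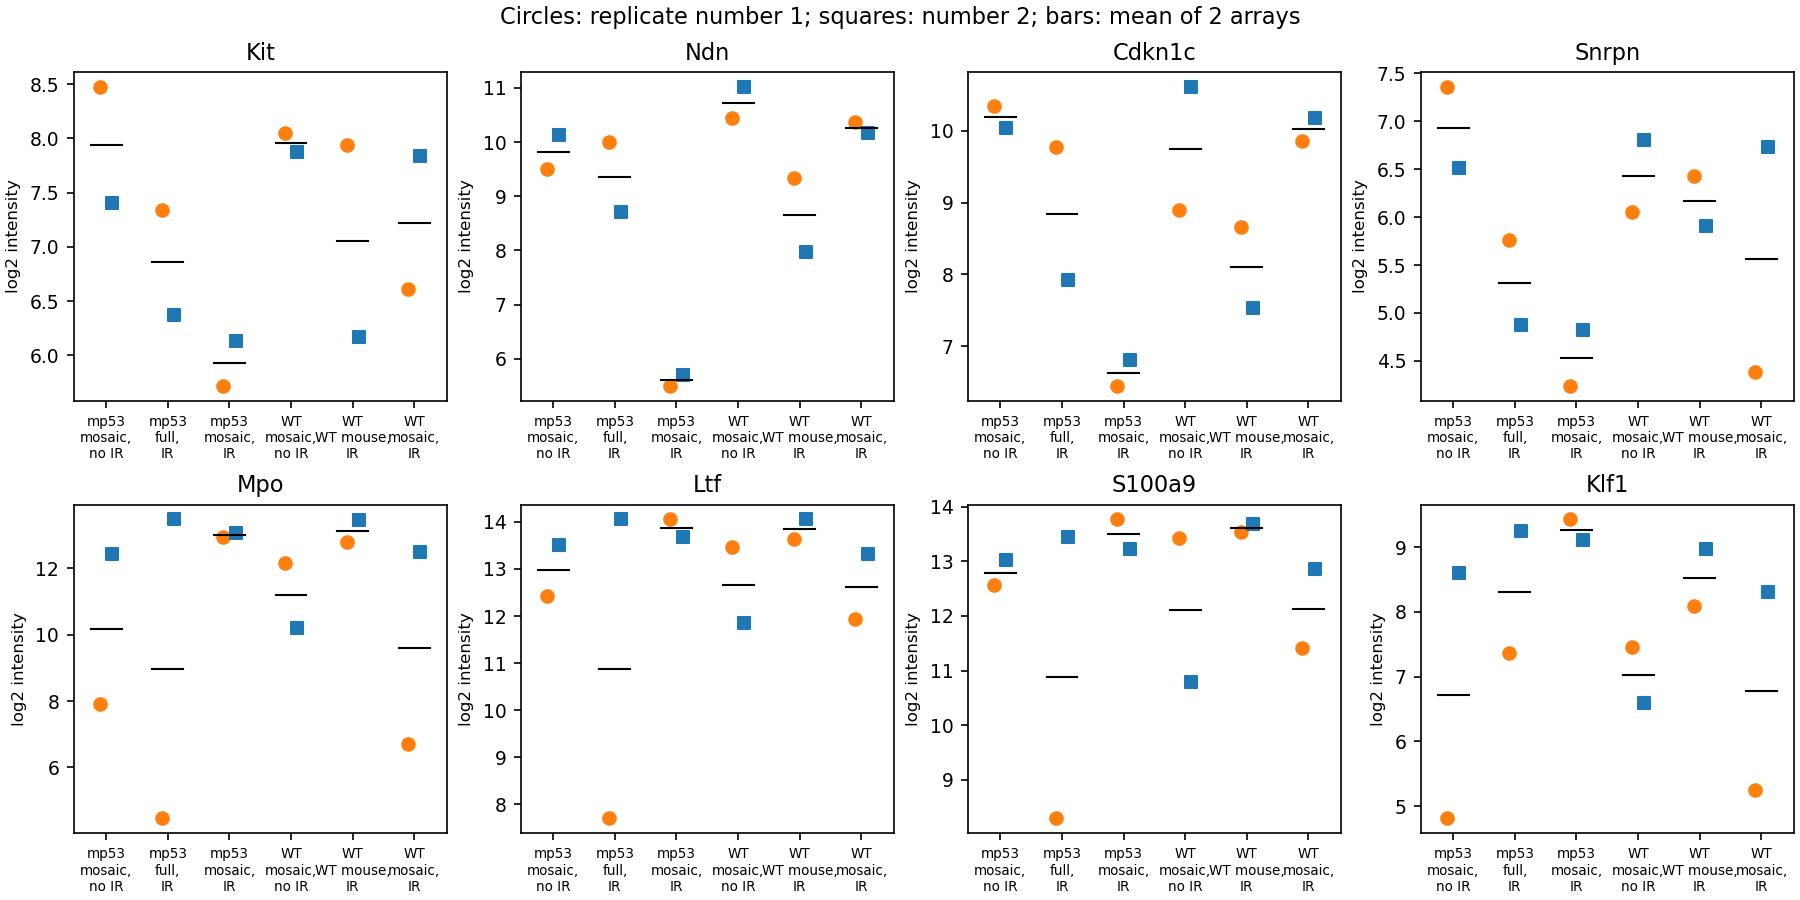
Normalized log2 intensity of 8 genes in all 6 groups, with circles for replicate number 1, squares for number 2 and bars for the mean of 2 arrays. Mpo, Ltf and S100a9 are lowest on the first array of irradiated, fully recombined mp53 cells (4.48, 7.72 and 8.30), and Kit, Ndn and Cdkn1c are lower in the mp53 cells of irradiated mosaic mice than in the non-competing ones.

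Progenitor genes lay higher in number 2 only in the median: of 19 measured, 15 lay higher and 4 lower (median 0.30, and -0.09 and 0.82 within numbers 1 and 2). Notch1, the receptor of T cell commitment, was at 5.37 and 7.43 unirradiated and at 7.07 and 8.55 irradiated, and Cebpa, the factor that sets the granulocyte fate, was not detected unirradiated (4.40 on both arrays) and at 4.70 and 6.39 irradiated, at least 1.56-fold higher. Cd34, which active HSCs and progenitors carry, was at 5.98 and 7.42 against 7.94 and 6.80, above both unirradiated arrays on the first irradiated array alone. Among the 11 measured members of the gate antigen list, 9 lay higher and Kit and Ptprc lower (median 0.29). That list is wider than the sort given above and holds further surface antigens such as Cd34. Cd48 was at 4.64 and 4.81 against 4.67 and 5.96.

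Other lineages were low or split. Of 15 macrophage and dendritic cell genes 10 lay higher (median 0.14), and Irf8, a monocyte and dendritic cell factor, was detected on the arrays of number 2 alone (6.41 unirradiated and 7.48 irradiated). Of 17 B lineage genes 12 lay higher (median 0.25); Cd79a, a B cell receptor component, was detected on none of the 4 arrays, and Blnk, its adaptor, again on those of number 2 alone. The 17 T and NK genes had a median of 0.13, with Cd3d, a T cell receptor component, at 4.72 and 5.45 against 4.84 and 8.90 and thus high on 1 array. Of 33 erythroid genes 23 lay higher (median 0.34, and 0.10 and 0.49 within numbers), and Klf1, the master factor of red cell genes, was at 4.82 and 8.60 against 7.36 and 9.25. The erythroid median was -0.21 under median scaling as well as without irradiated replicate 2, -0.27 without unirradiated replicate 1, and -0.19 with brightness as a covariate. Ank1, which anchors the red cell membrane skeleton, went the other way (6.21 and 5.67 against 4.99 and 5.22, unadjusted p = 0.0254), and its other probe differed by 0.48. Of 13 mast cell and basophil genes 10 lay lower, among them the inhibitory receptor Cd200r3 (5.98 and 5.19 against 4.60 and 4.71). The median of these 13 was -0.51, -0.32 with undetected members at their bound, and -0.16 without unirradiated replicate 1. The 14 stromal and endothelial genes had a median of 0.10, and Cxcl12, the factor that holds HSCs in their niche, was detected on the second irradiated array alone.

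Megakaryocyte genes held the largest difference among the list members with an unadjusted p under 0.05. Selp, P-selectin of platelet granules, was not detected in unirradiated cells (4.38 and 4.62) and was at 8.84 and 6.09 in irradiated cells, at least 5.90-fold higher (difference 2.97, SE 1.14, unadjusted p = 0.0295). The irradiated values of Selp lay within the range of the other 8 arrays, 7.63 and 5.76 in unirradiated WT cells and 6.92 and 7.04 in irradiated WT cells among them. The list did not follow it: 8 of 21 members lay higher and 13 lower (median -0.26), Mmrn1, a platelet and HSC matrix protein gene, was at 5.63 and 6.69 against 5.45 and 5.29, and Pf4, platelet factor 4, differed by 0.30.

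Most genes of G2 and mitosis lay higher by a small amount. Of the 49 measured 39 lay higher and 10 lower, with a median of 0.26 (0.26 and 0.18 within numbers 1 and 2), and 27 (55.1%) were higher within both numbers against 26.8% of all genes. An unadjusted p under 0.05 was reached by 2 members upwards and 1 downwards, against 1.54% and 1.33% of all genes. Tpx2, which activates Aurora A at the spindle, was at 6.58 and 6.79 unirradiated and at 8.08 and 8.45 irradiated (difference 1.58, SE 0.66, unadjusted p = 0.0413). Cep55, needed for the last cut between daughter cells, was not detected unirradiated (4.26 and 4.58) and at 5.56 and 5.44 irradiated, at least 1.51-fold higher. Cdc25b, the phosphatase that starts mitosis, lay lower instead (7.07 and 6.72 against 5.92 and 5.78, unadjusted p = 0.0277), and Aurka, the Aurora A kinase itself, was at 8.53 and 8.21 against 6.91 and 8.30. The list's median was -0.21 under median scaling, a setting that lowered all probes together as given above, and -0.18 with brightness as a covariate. It was -0.16 without irradiated replicate 2, -0.12 without unirradiated replicate 1, and 0.72 without either of the other arrays.

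Replication and repair genes leaned higher in number 1 more than in number 2. Of 41 S phase genes 27 lay higher (median 0.21, and 0.29 and 0.08 within numbers, and -0.03 without unirradiated replicate 1), led by Gins3, a subunit of the replicative helicase, at 4.49 and 5.67 against 6.41 and 6.52 (unadjusted p = 0.0112). Tyms, thymidylate synthase, was at least 1.18-fold higher. Rfc3, a subunit of the clamp loader, was at 7.50 and 5.21 against 5.25 and 4.9, high on the first unirradiated array alone. Of 41 DNA repair and checkpoint genes 25 lay higher (median 0.32, and 0.41 and -0.05 within numbers). Without unirradiated replicate 1 the median was -0.08, and of the 26 members detected on all 4 arrays 11 lay higher and 15 lower (median -0.03). Ercc1, a nuclease subunit of excision repair, was at 4.36 and 7.14 against 7.21 and 7.30. Ercc2, the helicase of the same pathway, differed by -0.57 and Clspn, a checkpoint adaptor, by -0.75. The 27 apoptosis genes split evenly, 14 higher and 13 lower (median 0.06). Casp9, the caspase of the apoptosome, differed by 0.88 and Xiap, a caspase inhibitor, by -0.72.

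Genes of translation and energy supply had small medians that changed sign between numbers. Those of 51 cytosolic ribosomal proteins were 0.23 and -0.36 (both together -0.02), those of 67 mitochondrial ribosomal proteins 0.37 and -0.15 (0.03), and those of 45 genes of ribosome biogenesis and Myc targets 0.26 and -0.26 (-0.01). Within the last list Nmd3, an export adaptor of the large ribosomal subunit, lay higher by 1.26 (SE 0.51), Ubtf, a factor of RNA polymerase I, was at least 1.17-fold higher, and Ncl, nucleolin, differed by 0.20. Of 65 respiratory chain genes 49 lay higher (median 0.33, 0.63 and -0.09 within numbers, and -0.06 without unirradiated replicate 1), with the cytochrome oxidase gene Cox7a2 at 7.39 and 7.20 against 8.64 and 7.81 (unadjusted p = 0.0313). The 32 proteasome genes had a median of 0.09.

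Among stress and signalling genes, single members stood apart from their lists. Hspb8, a small heat shock protein of autophagy, was at 9.07 and 8.48 unirradiated and at 7.24 and 5.92 irradiated (difference -2.19, SE 0.81, unadjusted p = 0.0254), while the 38 heat shock genes had a median of 0.03. WT cells had a difference of -3.10 for Hspb8, and the interaction with genotype was 0.91 (unadjusted p = 0.449). Irak1, a kinase of Toll-like receptor signalling, was at 8.88 and 8.75 against 8.11 and 7.77 (unadjusted p = 0.0149), with 3 kept probes that ranged from -0.88 to 1.04. Nfkb2 differed by -0.73 and Rela by 0.65, both NF-kB subunits, and the 36 genes of that list had a median of 0.00. Interferon-stimulated genes (37 measured) had a median of -0.12, with Irf9, a subunit of the interferon-activated factor, at 4.45 and 5.63 against 6.14 and 6.05. The 24 TGF-beta genes had a median of -0.08; Tgfbr1, the type I receptor, differed by 1.04 and Nr2f2, a nuclear receptor, by -0.86. Oxidative stress genes (31) had a median of 0.27, and of -0.06 over the 17 detected on all 4 arrays, while Sod1, superoxide dismutase, differed by -0.65 and Keap1, the sensor that restrains Nrf2, by -0.64.

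Immediate early genes varied from array to array. Fos was at 9.87 and 4.52 unirradiated and at 6.32 and 7.68 irradiated, and Egr1, also known to restrain HSC cycling, at 11.31 and 8.08 against 8.48 and 7.14. The 21 genes had a median of -0.04. Of 15 genes of the senescence and DNA damage secretory programme 10 lay lower (median -0.40, -0.23 with undetected members at their bound, and -0.02 without unirradiated replicate 1), with Mmp3, a matrix protease, at 5.35 and 4.95 against 4.78 and 4.38. The 26 quiescence-linked and niche response genes had a median of -0.01; Fbxw7, a ubiquitin ligase subunit that limits HSC cycling, was at 5.24 and 6.38 against 6.92 and 6.72 (unadjusted p = 0.0315), and Itga6, a laminin receptor, was at 7.77 and 8.09 against 6.80 and 6.83, while its other probe differed by 1.38.

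Sex-linked transcripts crossed between the replicates. The Y-linked Eif2s3y was at 9.42 unirradiated and 4.24 irradiated in number 1, and at 4.22 and 8.35 in number 2. Xist, transcribed from the inactive X chromosome, was at 6.43 and 8.35 in number 1 and at 6.53 and 5.79 in number 2. Within each number, then, 1 array of the pair had Eif2s3y and the other lacked it, in opposite directions, and both groups held 1 array of each kind. Kdm6a, an X-linked histone demethylase gene, was at 4.36 and 5.83 unirradiated and at 6.89 and 6.47 irradiated (unadjusted p = 0.0438). The 6 measured sex-linked genes had a median of 0.07.

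Irradiation in mp53 cells was then set against irradiation in WT cells, where the unirradiated cells likewise came from mosaic mice and the irradiated ones did not. The interaction, which tests whether the difference depends on genotype, called 0 of 13512 probes (0%) with a smallest adjusted p of 0.967, and 354 (2.62%) had an unadjusted p under 0.05, 236 (1.75%) of them positive and 118 (0.873%) negative. That count was 166 and 2607 without unirradiated mp53 replicates 1 and 2, 671 and 144 without irradiated WT replicates 1 and 2, and 207 without unirradiated WT replicate 2. The 5 genes of smallest p in the positive direction all lay higher in irradiated mp53 cells and lower in irradiated WT cells. A choice by this contrast favours such opposite directions, so the values of these genes are descriptions. Slc25a32, a mitochondrial folate carrier, was at 4.29 and 5.05 unirradiated and 5.71 and 5.96 irradiated in mp53 cells, and at 6.21 and 6.27 unirradiated and 4.70 and 4.33 irradiated in WT cells (interaction 2.90, SE 0.48, unadjusted p = 0.000243). Snap23 followed with 5.07 and 5.55 unirradiated and 4.36 and 4.36 irradiated in WT cells (interaction 2.52, SE 0.42). Nsun2, an RNA methyltransferase, had an interaction of 2.56, Tnni2, a troponin subunit, of 2.14 and Pfn2, an actin-binding profilin, of 2.10. For Snap23, Tnni2 and Pfn2 these are fitted values that rest on background signal in the unirradiated mp53 cells. After irradiation they were at least 2.04-fold, 1.42-fold and 1.28-fold higher there. Snap23 in irradiated WT cells also lay below a Myc probe (4.56 and 4.41) that no array detected. Slc25a32 lay below the undetected Cd27 (5.09) on the first unirradiated mp53 array. On the second irradiated WT array it lay below an undetected Cdkn1a probe (4.39). The sizes for Snap23 and Slc25a32 thus rest in part on background signal in both genotypes.

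In the negative direction, Ss18l1 had the smallest p. It encodes a subunit of BAF complexes and was at 5.75 and 5.57 unirradiated and 4.9 and 4.85 irradiated in mp53 cells, and at 4.88 and 4.49 against 5.26 and 5.83 in WT cells (interaction -1.64, SE 0.44, unadjusted p = 0.00522). On the second unirradiated WT array Ss18l1 (4.49) lay below a Myc probe (4.50) that no array detected, so its size rests in part on background signal. Prmt6, an arginine methyltransferase of histones, had an interaction of -2.19, Ces5a, a carboxylesterase, of -1.60 and Zdhhc16, a palmitoyltransferase, of -1.21. 4930599N23Rik was also among the 5, but its WT levels (4.50 and 4.92 unirradiated, 4.46 and 4.30 irradiated) lay near those of the irradiated mp53 arrays, where it was not detected, so no size is given.

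**Figure D5:**
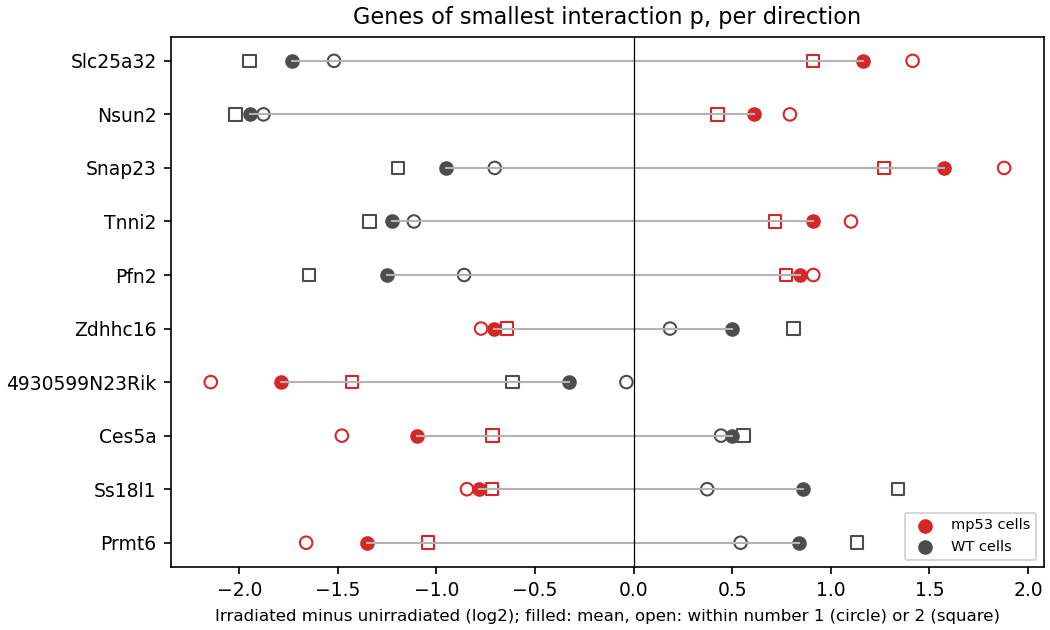
Irradiated minus unirradiated difference (log2, horizontal axis) for the 10 genes of smallest interaction p, in mp53 cells (red) and WT cells (grey); filled points are means of both replicate numbers, open circles number 1 and open squares number 2. In 9 of the 10 genes the means of the genotypes lie on opposite sides of 0, which the choice by interaction p favours. The exception is 4930599N23Rik, with WT levels near those of undetected mp53 arrays.

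Irradiated mp53 cells without competition were last set against mp53 cells of irradiated mosaic mice, here called winners. limma called 0 of 13512 probes (0%), with 397 (2.94%) at an unadjusted p under 0.05, 213 (1.58%) higher and 184 (1.36%) lower without competition, and a smallest adjusted p of 1.00. The 397 became 92 and 1214 without irradiated non-competing replicates 1 and 2, and 186 without winner replicate 1. The non-competing cells differed from the winners by 0.95 in the median of imprinted genes and by 1.27 in that of HSC genes, and by -2.29 in that of granulocyte and monocyte markers, as descriptions of lists chosen with these data known.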

How the data were processed

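The authors deposited, per the file headers, non-normalized linear intensities with detection p-values on 12 Illumina mouse arrays (46632 probes), in 1 table per replicate number. They also deposited processed intensities, used as an alternative only. Scanner software is not given in the sources used here, and 0 value columns were without a sample. Probes with 1 symbol in the platform annotation numbered 29976, those with several 10 and those with none 16646; symbols were looked up in RefSeq (GRCm38.p6, 29921 found, 0 changed).

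From the deposited intensities, background was corrected with normexp from detection p-values (offset 16), followed by quantile normalization over 12 arrays and log2 (neqc, limma 3.58.1, R 4.3.3). The filter asked for detection (p under 0.05) on 2 of 2 arrays in some group, and 13512 probes for 8374 genes passed. Passing through a single group favours probes that are high in it. A gene is its kept probe of highest mean; among 1542 genes with several, 726 had probes that differed in sign. The limma model had 6 group means (6 residual degrees of freedom), with Benjamini-Hochberg adjustment over all kept probes and a threshold of 0.05. The code was run on simulated data whose noise was independent between arrays. The real arrays deviate together by replicate number, so that run does not measure how the model performs here. Each group had 2 arrays, which limits the precision. Where neither array of a group detected a probe, a bound ("at least N-fold") was taken: each undetected array was given its lowest detected signal, or the probe's own signal where that was higher, before averaging.

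Genes named were, per direction, 12 leading genes as described, up to 4 members of each of 32 lists in the direction of its median and up to 2 in the other, by smallest p, up to 5 genes per direction of the interaction, and a fixed set of genes of HSCs, lineages and p53. Members of lists named beside these to describe detection were chosen after their values were seen. The members and lists were chosen with earlier results of these data known. No sequences are printed, since no result turns on one.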

Additional observations from a re-analysis of the deposited data

Results flagged for a closer look

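The median of the 14 measured stromal and endothelial genes was 0.10 in mp53 cells, above 0 within both replicate numbers (0.01 and 0.17), whereas in WT cells it was -0.09 and below 0 within both (-0.05 and -0.12). Every replicate number thus had 1 sign in mp53 cells and the other in WT cells. The difference between the genotypes was not tested for this list. The mp53 value was -0.78 under median scaling and -0.003 with quantile normalization over the kept probes alone, so its direction depends on the scaling. It depends on single arrays too. The value was -0.10 without irradiated mp53 replicate 2 and -0.02 without unirradiated replicate 1, and 0.13 and 0.19 without the other arrays. Of the 14 members, 5 were detected on all 4 mp53 arrays, 2 higher and 3 lower, with a median of -0.45.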

How the results depend on the processing

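The count of probes called for irradiation in mp53 cells was 0 under each alternative except without mp53 unirradiated replicate 2, where it was 78, and 0 without any other of the 4 arrays; for the interaction and for mp53 cells without against with competition it was 0 under every alternative. Probes at an unadjusted p under 0.05 for irradiation (461) numbered 185 under median scaling, 288 with quantile normalization within each replicate number, 304 from the deposited processed values, 288 with detection p under 0.01, 1761 with no filter, 147 from only the 4 arrays and 164 with array weights, and 157 to 3230 with 1 array left out. For the interaction (354) they numbered 217 with quantile normalization within numbers, 225 from the deposited values, 230 with detection p under 0.01, 1561 with no filter and 627 with brightness as a covariate, and 144 to 2607 with 1 array left out. Without against with competition (397) they numbered 229 under median scaling, 162 with quantile normalization within numbers, 160 from the deposited values and 1190 with no filter, and 92 to 1214 with 1 array left out. The causes were not tested, beyond the fewer or more probes and samples that an alternative itself brings.

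The main model held no term for replicate number. Deviations of same-numbered arrays nevertheless correlated above 0.1 in 14 of 15 pairs of groups (0.07 to 0.64, and 0.52 for the groups compared here). Arrays of 1 number thus varied together, and the main p-values do not take this into account. With the replicate block, 0 probes were called and 1283, 866 and 744 had an unadjusted p under 0.05 for irradiation, the interaction and competition.

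Of the 24 leading genes, 23 kept their direction under each alternative run. Leaving out 1 array could not reverse them, since they were chosen for groups that do not overlap. Several other alternatives change the spread or the filter and leave the difference itself as it is. Map3k6 was -0.12 under median scaling. 4930599N23Rik and 9930021J03Rik passed the threshold without mp53 unirradiated replicate 2. With brightness as a covariate all 24 kept their direction, with differences of at least 0.73. Of 84 other genes named by the rule, 31 changed sign under at least 1 alternative, and of 10 interaction genes 0 did. These 10 were picked by the interaction itself, which favours a kept sign. Of 32 list medians, 3 kept their sign under each alternative, those of imprinted genes, mast cells and basophils, and the senescence and DNA damage secretory programme. Lists share members: Cdkn1c is in the imprinted, senescence and HSC lists, and Kit and Gata2 are in the mast cell and HSC lists. Brightness as a covariate changed 18 signs and the deposited values 2. Quantile normalization over the kept probes alone, chosen after seeing the data, left 413 probes at an unadjusted p under 0.05 and changed 3 list signs. Signal over background limits genes such as Snap23 and Wnk1, which were not detected in the unirradiated mp53 cells.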
